A study of Mus musculus with 24 samples.

Results

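Neonatal microglia were set against bone marrow macrophages, gene by gene, on mouse expression arrays. The 3 arrays of neonatal microglia (neo-MG) and the 3 of bone marrow macrophages (bm-Mac) are 6 of the 24 arrays of a series that holds 8 cell groups of 3 arrays each, and the comparison took in all 18820 genes that a probeset named alone, each read from its probeset of highest mean. The other groups are induced pluripotent stem cells (iPSC), microglia derived from them (iPS-MG), adult microglia (ad-MG), dendritic cells (DC), neural stem cells (NSC) and peritoneal macrophages (p-Mac). Every value is the deposited log2 intensity of a GeneChip Mouse Gene 1.0 ST array after RMA, so a difference of 1 is a 2-fold change. Per the labels, the neo-MG mice were C57BL/6NCr carrying Cx3cr1gfp/+, an allele that puts green fluorescent protein in place of 1 copy of the fractalkine receptor gene, and were at postnatal day 5 (P5). The bm-Mac mice were adult C57BL/6NCr with no reporter allele named. Both kinds of cell were kept in DMEM/F12 with defined serum, Glutamax and antibiotics, with no growth factor listed for them, and each array took 200 ng of total RNA. Age, the reporter allele, tissue of origin and the sex-linked transcripts described below differ together between the groups and cannot be told apart. Whether the replicates were different animals or cultures is not stated in the labels. The p-values and standard errors here come from 1 fit to all 24 arrays. They rest only on how far arrays spread within all 8 groups, possibly for technical reasons, and not on the spread of the 6 arrays alone.

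Microglia are the resident macrophages of the brain, seeded from the yolk sac before birth and kept in place by self-renewal, and signals of the brain such as TGF-beta hold them in a state marked by P2ry12, Sall1, Fcrls and related genes. Macrophages of the bone marrow come from haematopoietic stem cells by way of monocytes, which carry the chemokine receptor Ccr2, and bone marrow also makes granulocytes, mast cell and basophil precursors, platelets and plasma cells. Macrophages of both origins share the receptor Csf1r, the transcription factor Spi1 and a broad machinery of phagocytosis and lysosomes.

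The arrays of each group lay close together. The root mean square difference over all genes was 0.113 to 0.128 between neo-MG arrays, 0.121 to 0.148 between bm-Mac arrays and 0.534 to 0.544 between an array of one group and an array of the other. Of the other myeloid groups, neo-MG arrays were 0.553 to 0.578 from ad-MG, 0.662 to 0.713 from p-Mac and 0.687 to 0.698 from DC. The distance to iPS-MG was not computed, so the nearest group is not given. Array medians of the microglia-enriched list described below were 10.14 to 10.30 in neo-MG and 10.17 to 10.33 in iPS-MG. The bm-Mac arrays stood apart from most of the series in several gene groups that are given with the results they touch. These were markers of granulocytes, of mast cells and basophils, and of platelets. Together with the p-Mac arrays, the bm-Mac arrays also stood apart in genes of ribosomal proteins and of the respiratory chain. The deposited value table carries no detection call, so a low log2 value is not separated from background and a fold against it is the fold between the measured values.

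A gene was called when limma gave a Benjamini-Hochberg adjusted p under 0.05 and the 2 means differed by at least 1 on the log2 scale. By that rule 984 of the 18820 genes were called (5.23 percent), 396 higher in neo-MG (2.1 percent) and 588 lower (3.12 percent). The fold minimum decided every call: each of the 984 genes past it also passed the adjusted p, and the arrays of the groups did not overlap for any of them. Array ranges without overlap were common, at 10246 genes (54.4 percent). Large differences lay mostly on the bm-Mac side, since 188 genes were lower in neo-MG by at least 2 on the log2 scale against 61 higher, and 27 were lower by at least 4 against 3 higher. Counted without the fold minimum, 7772 genes (41.3 percent) had an adjusted p under 0.05, with 3571 higher and 4201 lower. The median difference over all genes was -0.03. Of the called genes, 387 of the higher and 559 of the lower ones were protein-coding.

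**Figure D1:**
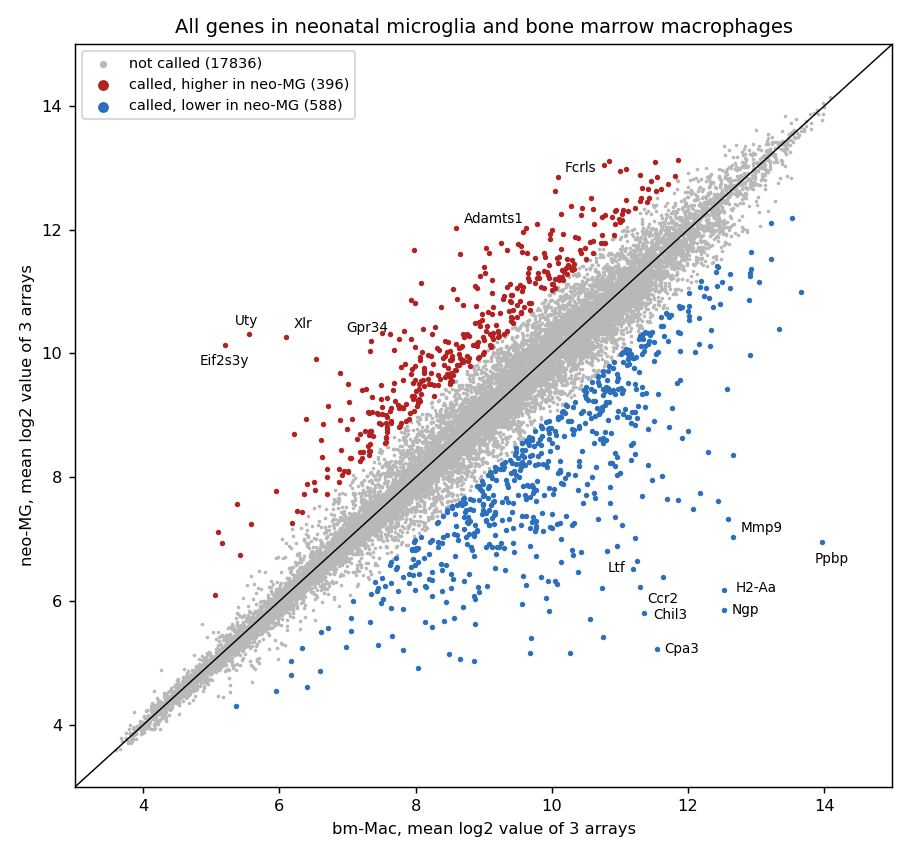
Mean log2 value of the 3 neo-MG arrays (vertical axis) against that of the 3 bm-Mac arrays (horizontal axis) for each of 18820 genes; the line marks equal values, and colours mark the 396 genes called higher and the 588 called lower in neo-MG. The points farthest from the line, such as Ppbp, Ngp and H2-Aa, lie on the bm-Mac side.

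The protein-coding genes most in excess in neonatal microglia mixed Y-linked genes, microglial receptors and secreted proteins. Eif2s3y, a translation initiation factor subunit on the Y chromosome, read 10.21, 10.05 and 10.14 in neo-MG and 5.32, 5.11 and 5.16 in bm-Mac, a difference of 4.94 ± 0.10 (standard error) or 30.6-fold (limma, adjusted p = 4.82e-23). Uty, a Y-linked histone demethylase relative, differed by 4.75 ± 0.08, and Kdm5d, a Y-linked demethylase, by 2.55 ± 0.13. Xist, the RNA that coats the inactive X chromosome, ran the other way at 12.10, 12.13 and 12.12 in neo-MG and 13.18, 13.20 and 13.27 in bm-Mac, a difference of -1.10 ± 0.06 (limma, adjusted p = 2.99e-14). Both groups thus had a high Xist value, and high Y-linked values were seen in neo-MG and not in bm-Mac, so sex-linked transcripts were not matched between the groups. All 4 sex-linked genes tested were called, and they say nothing of cell type.

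Among autosomal and other genes of the same 15, the secreted metalloproteinase gene Adamts1 read 12.01, 12.06 and 11.99 in neo-MG and 8.56, 8.61 and 8.62 in bm-Mac, a difference of 3.42 ± 0.07 (10.7-fold, limma adjusted p = 6.37e-23). Gpr34, a lysophosphatidylserine receptor of microglia, read 10.40, 10.17 and 10.03 in neo-MG and 7.32, 7.35 and 7.37 in bm-Mac and differed by 2.85 ± 0.14. Fcrls, a scavenger-type Fc receptor-like gene used as a microglial marker, read 12.86, 12.88 and 12.81 in neo-MG and 10.17, 10.01 and 10.08 in bm-Mac and differed by 2.76 ± 0.08 (6.79-fold). The arrays of the groups were separated by more than 2 log2 units for each of these 3 genes, while the arrays within a group lay within 0.5. Ccr1l1, a chemokine receptor-like gene, differed by 3.06 ± 0.09; Sgce, epsilon-sarcoglycan, by 2.96 ± 0.08; and Plekhh2 by 2.92 ± 0.12. Serpina3n, a secreted protease inhibitor, differed by 2.83 ± 0.13, the endolysosomal channel gene Mcoln3 by 2.82 ± 0.09, the thyroxine carrier gene Ttr by 2.79 ± 0.08, the complement gene C2 by 2.72 ± 0.07 and the netrin receptor gene Neo1 by 2.69 ± 0.07. Xlr and 3830403N18Rik, a related gene of the Xlr family, were also among the 15, at 4.16 ± 0.20 and 3.36 ± 0.17. Xlr was high in the 3 microglial groups of the series, with means of 10.26 in neo-MG, 10.05 in iPS-MG and 9.54 in ad-MG, against 6.10 in bm-Mac, 6.80 in p-Mac and 6.07 in DC. Ccr1l1 was also high in adult microglia and low in peritoneal macrophages, with 11.31 in ad-MG and 6.98 in p-Mac. Not all of the 15 had this pattern. Mcoln3 had a mean of 7.69 in ad-MG, below its 7.99 in bm-Mac, and C2 had 8.13 in ad-MG against 10.04 in neo-MG. Neo1 had means of 9.69 in p-Mac and 11.69 in NSC. A non-coding gene picked after its values were seen, G530011O06Rik, lay in the same range at 3.70 ± 0.11.

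The genes furthest below bm-Mac included those of platelets, granulocytes, mast cells and basophils, antigen presentation and monocytes. Ppbp, the platelet basic protein, read 6.81, 6.96 and 7.11 in neo-MG and 13.97, 13.93 and 13.99 in bm-Mac, a difference of -7.01 ± 0.12 or 128.5-fold (limma, adjusted p = 3.94e-24). Ngp, a neutrophil granule protein, read 5.70, 5.97 and 5.88 in neo-MG and 12.54, 12.44 and 12.62 in bm-Mac and differed by -6.68 ± 0.09. H2-Aa, the alpha chain of an MHC class II molecule, read 6.41, 6.03 and 6.11 in neo-MG and 12.67, 12.54 and 12.40 in bm-Mac and differed by -6.35 ± 0.09. Each of these is a gap of more than 5 log2 units between the nearest arrays of the groups. Cpa3, mast cell carboxypeptidase, read 5.22, 5.21 and 5.24 in neo-MG and 11.52, 11.57 and 11.54 in bm-Mac and differed by -6.32 ± 0.12. Mmp9, gelatinase B, read 7.16, 7.04 and 6.91 in neo-MG and 12.67, 12.65 and 12.67 in bm-Mac and differed by -5.63 ± 0.08. The rest of the 15 were Chil3 (-5.55), the high affinity IgE receptor gene Ms4a2 (-5.33), Rgs18 (-5.26), the basophil protease gene Mcpt8 (-5.24), Serpinb10 (-5.10), the monocyte chemokine receptor gene Ccr2 (-5.07), Adgre4 (-4.84), Tnip3 (-4.82), lactoferrin, Ltf (-4.66), and the basophil protease gene Prss34 (-4.60). Some of these were also high elsewhere in the series: Rgs18 had a mean of 12.22 in p-Mac, Adgre4 of 10.69 in p-Mac and Chil3 of 13.45 in DC. Over all 588 genes lower in neo-MG, bm-Mac had the highest mean of the 8 groups for 288 (49 percent), DC for 115 (19.6 percent) and p-Mac for 94 (16 percent). For the 396 higher genes, neo-MG itself had the highest mean for 59 (14.9 percent), NSC for 144 (36.4 percent) and iPS-MG for 76 (19.2 percent).

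**Figure D2:**
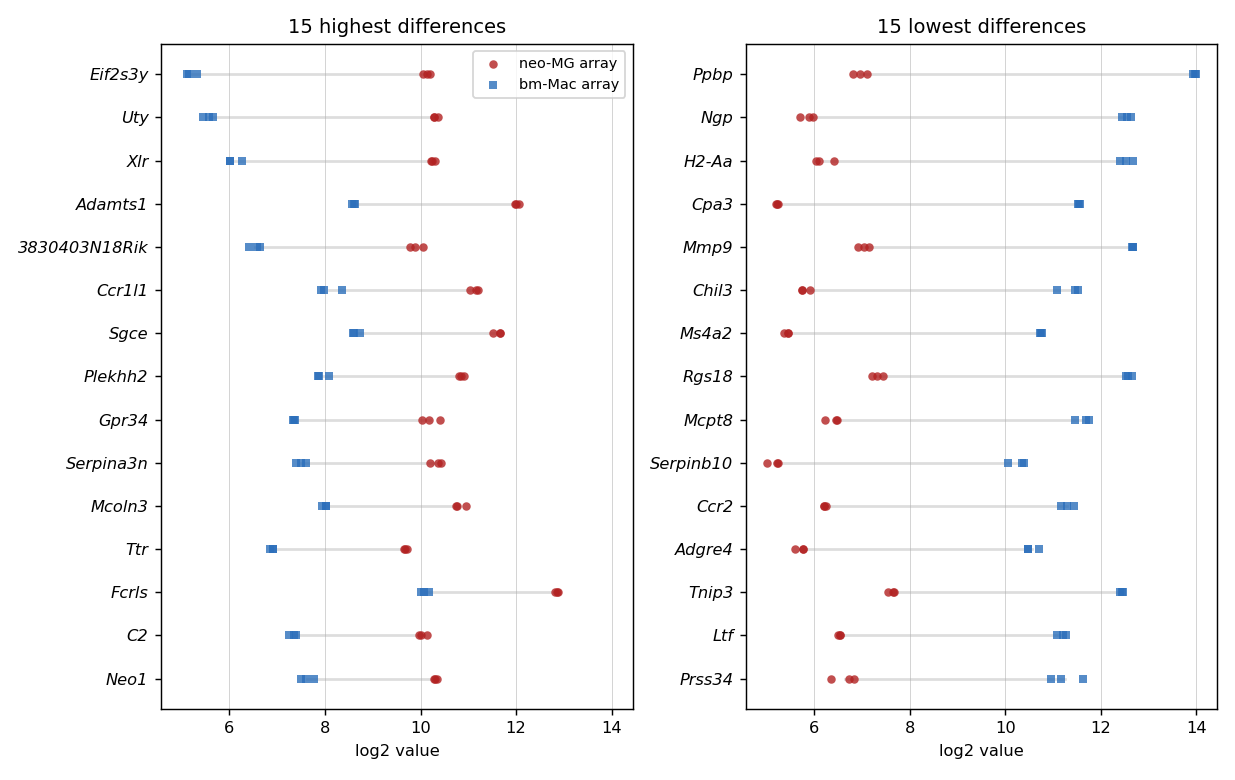
Log2 value in each neo-MG array (red circles) and each bm-Mac array (blue squares) for the 15 protein-coding genes with the highest differences and the 15 with the lowest; grey lines join the group means. For every gene shown the arrays of a group lie together. That the groups do not overlap follows from the choice of the genes.

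The genes shared by myeloid cells differed by less than the fold minimum, and a part of the microglia-enriched genes separated the groups. None of the 31 pan-myeloid genes measured was called, against 5.23 percent of all genes, and at that share a list this short would hold few calls. Of the 31, 16 had an adjusted p under 0.05, against 41.3 percent of all genes. Their median difference was -0.03, and 0.05 after centring each array on its median. Spi1, the master transcription factor of macrophages, read 12.46, 12.55 and 12.52 in neo-MG and 12.55, 12.40 and 12.37 in bm-Mac, a difference of 0.07 ± 0.12. Adgre1, a surface marker of mouse macrophages, read 13.23, 13.24 and 13.20 in neo-MG and 13.29, 13.24 and 13.29 in bm-Mac, and these arrays overlapped. Csf1r, the receptor that macrophages need to survive, read 12.79, 12.90 and 12.83 in neo-MG and 13.37, 13.39 and 13.29 in bm-Mac, a difference of -0.51 ± 0.08 that was below the fold minimum. Irf8 differed by -0.02 ± 0.07, Aif1 (Iba1) by 0.29 ± 0.15, Ptprc (CD45) by -0.35 ± 0.08 and Itgam (CD11b) by -0.74 ± 0.10. The ends of the list were Csf2rb (-0.80), the shared beta chain of cytokine receptors, Clec4a2 (-0.78), Fcgr3 (0.32) and Cd33 (0.62).

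Of 31 microglia-enriched genes measured, 9 were called higher in neo-MG, none lower, and 22 were not called. Their median difference was 0.30. P2ry12, the ADP receptor by which microglia sense injury, read 10.30, 10.26 and 10.14 in neo-MG and 7.91, 7.71 and 7.64 in bm-Mac, a difference of 2.48 ± 0.13 or 5.58-fold (limma, adjusted p = 1.35e-14). P2ry13, its neighbouring ADP receptor gene, read 11.92, 12.04 and 11.91 in neo-MG and 9.66, 9.56 and 9.51 in bm-Mac and differed by 2.38 ± 0.11. Sall1, a transcription factor that sets microglial identity, read 9.86, 9.76 and 9.77 in neo-MG and 8.13, 7.68 and 8.18 in bm-Mac and differed by 1.80 ± 0.12. For these 3 genes, as for every gene called higher, the lowest neo-MG array lay above the highest bm-Mac array. Beside Gpr34 and Fcrls above, the called members were Olfml3 (2.55), the transcription factor gene Bhlhe41 (2.07), Sparc (1.57), which encodes a secreted matrix protein, and Plxdc2 (1.08). Several well known markers were not called. Tmem119 read 8.37, 8.42 and 8.38 in neo-MG and from 7.87 to 8.02 in bm-Mac, a difference of 0.43 ± 0.09, while the ad-MG mean was 10.07. Cx3cr1, the fractalkine receptor, of which neo-MG mice have 1 intact copy, read 10.33, 10.26 and 10.34 in neo-MG and 10.47, 10.53 and 10.48 in bm-Mac, a difference of -0.19 ± 0.07; its ad-MG mean, in mice of the same genotype, was 12.41. Siglech differed by -0.59 ± 0.07, Slco2b1 by -0.75 ± 0.10 and Gpr84 by -0.76 ± 0.12, toward bm-Mac and below the fold minimum. Trem2, the lipid-sensing receptor, differed by 0.30 ± 0.06, Tgfbr1 by 0.77 ± 0.09 and Sall3 by 0.84 ± 0.08. The label of neo-MG as microglia is thus borne by P2ry12, Sall1, Fcrls, Olfml3 and Gpr34, whereas Tmem119, Cx3cr1 and Siglech did not set it above bm-Mac by the fold minimum.

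**Figure D3:**
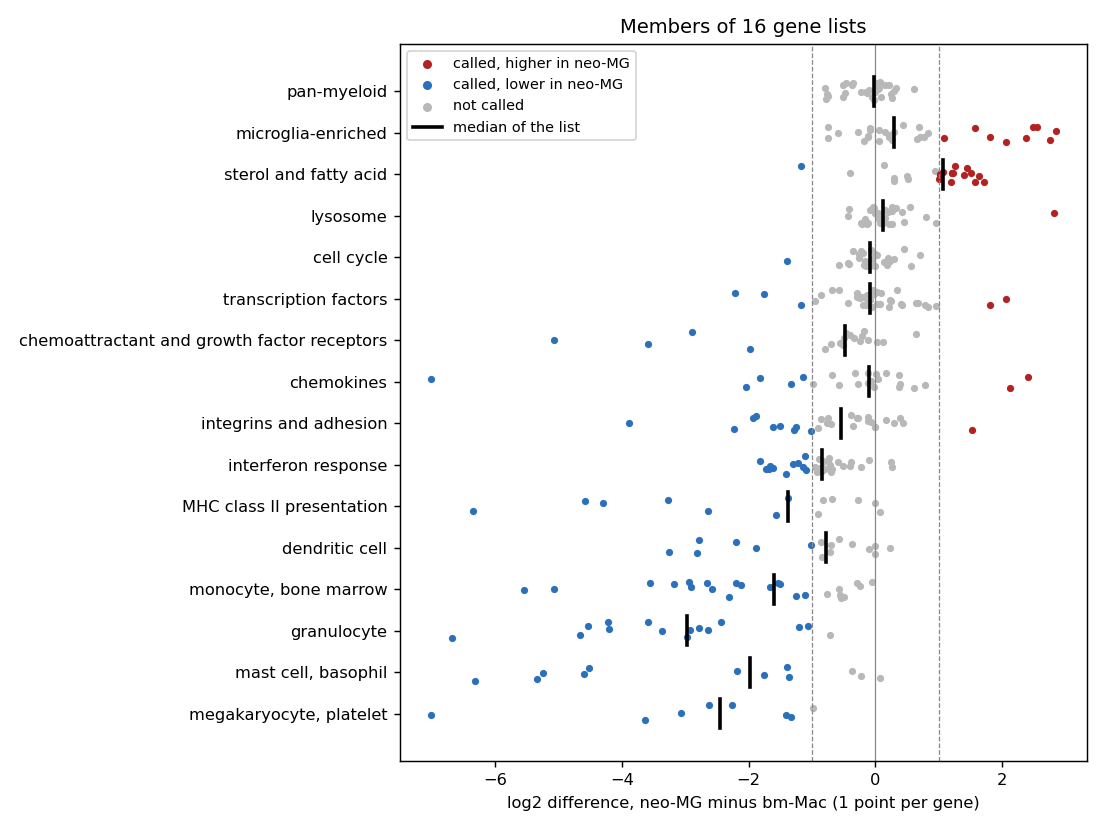
Log2 difference, neo-MG minus bm-Mac, of each measured member of 16 gene lists; each point is a gene, its colour gives the call, the black bar is the list's median and dashed lines mark differences of -1 and 1. Pan-myeloid genes all lie between the dashed lines, while all members of the granulocyte list lie below 0.

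Genes of monocytes and their bone marrow lineage were lower in neo-MG. Of 24 measured, 16 were called lower and none higher, with a median of -1.60, and all 24 differences were below 0. Ccr2, which draws monocytes out of the marrow and into tissue, read 6.26, 6.21 and 6.21 in neo-MG and 11.29, 11.16 and 11.45 in bm-Mac, a difference of -5.07 ± 0.10 (33.6-fold, limma adjusted p = 3.64e-23). Chil3, a chitinase-like protein, read 5.75, 5.74 and 5.92 in neo-MG and 11.08, 11.45 and 11.53 in bm-Mac. Gda differed by -3.56 ± 0.09, Plac8 by -3.18 ± 0.12, the anti-inflammatory annexin gene Anxa1 by -2.94 ± 0.09, the clotting factor gene F13a1 by -2.91 ± 0.11 and the integrin gene Itga4 by -1.25 ± 0.09. Fn1, fibronectin, was not called at -0.76 ± 0.05, and neither were Mgst1 (-0.24) nor Vim (-0.06). The list as a whole was not particular to bm-Mac. Its array medians were 9.25 to 9.38 in neo-MG, 11.41 to 11.55 in bm-Mac, 11.69 to 11.84 in p-Mac and 11.53 to 11.58 in DC. In ad-MG they were 10.21 to 10.60. F13a1 and Gda were as high or higher in other groups of the series, with p-Mac means of 12.75 and 12.37. Plac8 was at 6.78 in p-Mac and 6.39 in DC.

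Most marker genes of granulocytes, mast cells and basophils, and platelets were called higher in bm-Mac, and in bulk RNA a larger number of such cells and more of these RNAs per cell cannot be told apart. Of 15 granulocyte genes, 14 were called lower in neo-MG with a median of -2.97. S100a8, a subunit of calprotectin, read 6.16, 6.33 and 6.13 in neo-MG and 10.76, 10.74 and 10.70 in bm-Mac, a difference of -4.53 ± 0.09. Mpo, the myeloperoxidase of neutrophil precursors, read 7.63, 7.66 and 7.61 in neo-MG and 11.87, 11.88 and 11.82 in bm-Mac, a difference of -4.22 ± 0.08. Elastase, Elane, differed by -2.43 ± 0.08 and the neutrophil chemokine receptor gene Cxcr2 by -3.59 ± 0.10; at the other end Camp differed by -1.06 ± 0.07, and Cebpe was not called at -0.72 ± 0.08. The call of Camp was lost under median centring, under a second quantile normalization and without bm-Mac replicate 2. The linear values of the 15 genes summed to 3242 to 3310 per neo-MG array and to 32395 to 33611 per bm-Mac array, against 4970 to 4987 in p-Mac.

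Mast cell and basophil genes followed, with 9 of 12 called lower and a median of -1.97. Beside Cpa3, Ms4a2, Mcpt8 and Prss34, the IgE receptor gene Fcer1a read 5.06, 5.28 and 5.14 in neo-MG and 9.87, 9.66 and 9.51 in bm-Mac, a difference of -4.52 ± 0.10. The transcription factor gene Gata2 differed by -2.19 ± 0.08, the histamine-forming enzyme gene Hdc by -1.76 ± 0.08 and the stem cell factor receptor gene Kit by -1.40 ± 0.07. Tpsab1 (0.07), Mcpt4 (-0.23) and Cma1 (-0.37), proteases of mature mast cells, were not called. The list summed to 1211 to 1284 per neo-MG array and 12899 to 15034 per bm-Mac array. Of 8 megakaryocyte and platelet genes, 7 were called lower, with a median of -2.44. Gp9, a subunit of the platelet von Willebrand factor receptor, read 7.70, 7.71 and 7.67 in neo-MG and 11.45, 11.38 and 11.16 in bm-Mac, a difference of -3.64 ± 0.07. Itga2b, the platelet integrin gene, differed by -2.62 ± 0.10 and Pf4, platelet factor 4, by -1.33 ± 0.09; Pf4 had an ad-MG mean of 11.67 and a p-Mac mean of 12.48, so it was not low in other macrophages. Platelet genes summed to 5021 to 5142 per neo-MG array and 31947 to 32767 per bm-Mac array. Of 13 progenitor genes 9 were not called and 4 were called lower, of which Gata2 and Kit are also in the mast cell and basophil list: Myb (-2.25), Gata2, Kit and Cd34 (-1.12). A family of 19 immunoglobulin genes, put together after values were seen, had 11 called lower with a median of -1.58 and the lowest difference at -4.11. None of 11 B cell genes was called, against 5.23 percent of all genes. Of these 11, 8 differences were below 0 and 3 above, and 7 had an adjusted p under 0.05. For 4 of them (36.4 percent, against 3.7 percent of all genes) the bm-Mac and p-Mac arrays all lay above the other 18. Of 11 T and NK cell genes Nkg7 (-2.42) and Cd4 (-1.46) were called lower. The part of other cell types in the remaining differences between the groups was not tested.

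**Figure D4:**
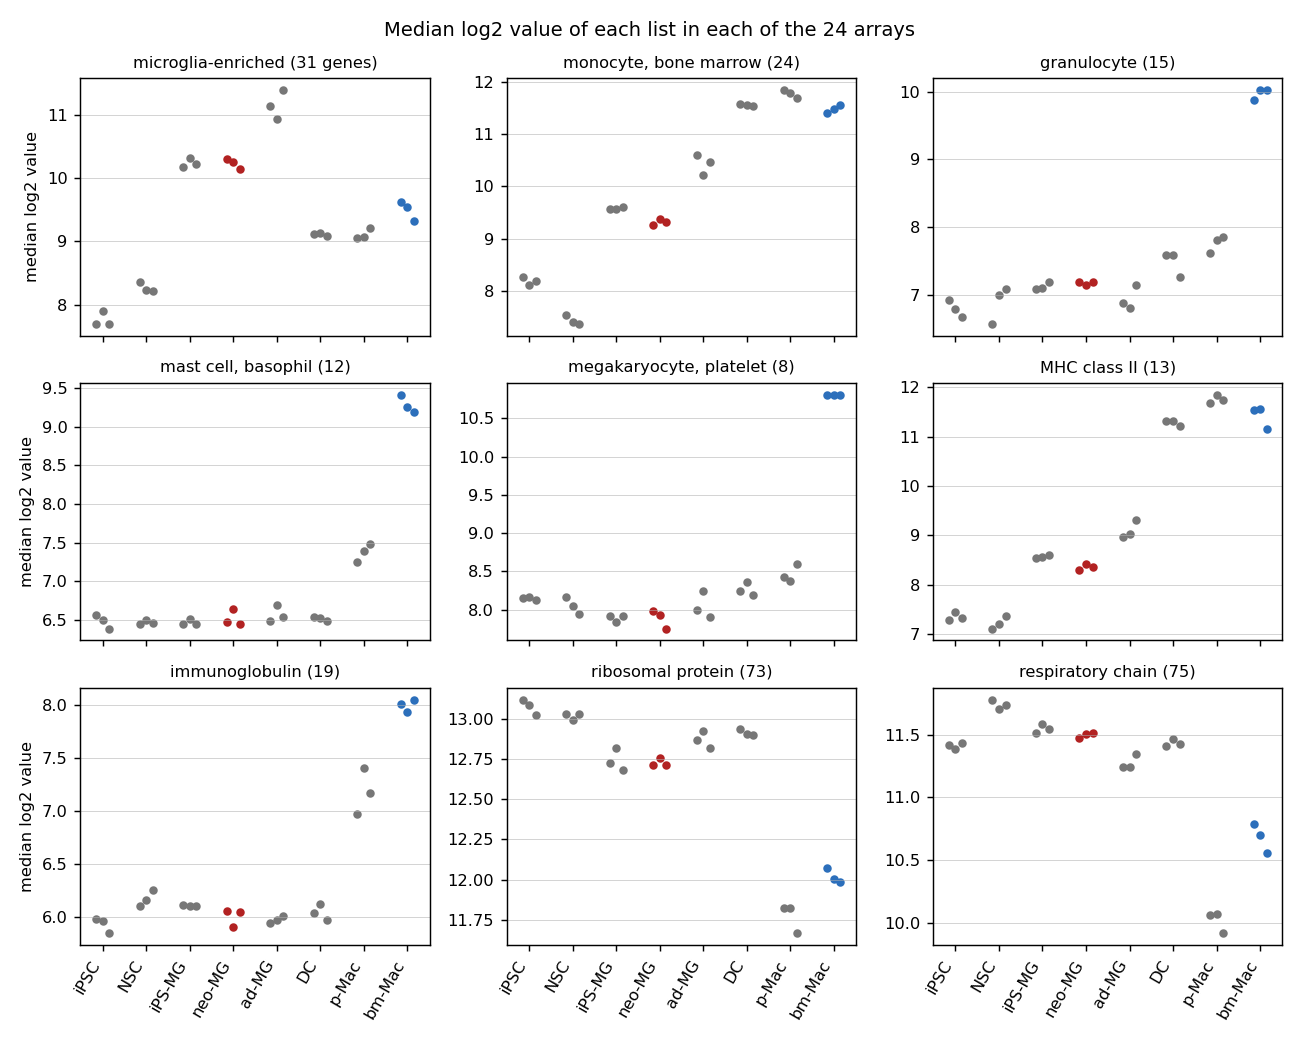
Median log2 value over the genes of 9 lists in each of the 24 arrays, by cell group (horizontal axis); each point is an array, with neo-MG in red and bm-Mac in blue, and each panel has its own vertical scale. In the granulocyte, the mast cell and basophil, and the platelet panels the bm-Mac arrays lie above all other groups. In the ribosomal protein and respiratory chain panels the bm-Mac and p-Mac arrays lie below the rest.

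Genes of MHC class II presentation were lower in neo-MG, most of all the class II chains themselves. Class II molecules show peptides from engulfed protein to CD4 T cells; their genes are switched on together through the coactivator CIITA, which acts through X and Y boxes in their promoters. Of 13 genes, 7 were called lower and none higher, with a median of -1.37. H2-Ab1, the beta chain that pairs with the product of H2-Aa, read 7.40, 7.54 and 7.53 in neo-MG and 12.18, 12.09 and 11.96 in bm-Mac, a difference of -4.59 ± 0.11 (24-fold, limma adjusted p = 1.39e-21). Cd74, the invariant chain, read 8.29, 8.43 and 8.37 in neo-MG and 12.79, 12.62 and 12.56 in bm-Mac and differed by -4.29 ± 0.12. H2-Eb1 differed by -3.27 ± 0.09 and H2-DMa, whose product loads peptides, by -2.64 ± 0.10. Groups did not overlap for any of these, as for every called gene. The costimulatory genes Cd40 and Cd80 differed by -1.57 ± 0.08 and -1.37 ± 0.07, whereas Cd86 was not called at -0.27 ± 0.07. Ciita itself was not called, at 7.72, 7.65 and 7.46 in neo-MG and 8.31, 8.22 and 8.34 in bm-Mac and a difference of -0.68 ± 0.09. The protease gene Ctss, which trims the invariant chain, read 13.18, 13.23 and 13.20 in neo-MG and 13.20, 13.19 and 13.22 in bm-Mac and overlapped between the groups. Class II genes were high in DC and p-Mac too, as H2-Aa had means of 11.29 in DC, 12.31 in p-Mac and 6.28 in ad-MG. Of 14 genes of MHC class I presentation 1 was called (7.14 percent, against 5.23 percent of all genes). It was the peptide transporter gene Tap1, lower in neo-MG at -1.19 ± 0.07.

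The 250 bases before the start site of H2-Aa (chr17:34287824-34288073, minus strand) and H2-Eb1 (chr17:34305617-34305866, plus strand) are given because both genes moved together and their promoters hold the box through which class II genes are known to be regulated. Sequences are RefSeq's for GRCm38.p6, 5′ to 3′ on the gene's strand; capitals mark the Y box motif CTGATTGG, sought on both strands.
H2-Aa: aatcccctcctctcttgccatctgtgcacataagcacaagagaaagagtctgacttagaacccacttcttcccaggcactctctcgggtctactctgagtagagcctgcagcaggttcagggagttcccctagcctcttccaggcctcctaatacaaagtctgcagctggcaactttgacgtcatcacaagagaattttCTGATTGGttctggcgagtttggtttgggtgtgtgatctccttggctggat
H2-Eb1: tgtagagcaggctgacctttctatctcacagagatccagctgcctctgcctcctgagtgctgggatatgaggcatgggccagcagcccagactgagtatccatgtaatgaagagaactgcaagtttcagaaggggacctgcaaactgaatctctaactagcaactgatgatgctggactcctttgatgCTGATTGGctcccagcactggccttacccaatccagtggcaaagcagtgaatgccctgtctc
The Y box stood at -51 to -44 from the start in H2-Aa and at -62 to -55 in H2-Eb1. Of 32851 promoters of the same length, 1258 held it (3.83 percent). Of the 7 called class II list genes 4 had a promoter entry, 2 of them with the motif, and of the 6 that were not called 4 had one, of which H2-Oa held the motif, with a difference of -0.91 ± 0.08. The same letters were not limited to class II genes. In the sterol list described below they stood in 3 of 11 called members with an entry (Idi1, Lss and Sc5d). Among its members that were not called they stood in 2 of 6 with an entry (Mvk and Srebf1). A match of letters describes the window and is not a measurement of binding.

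A minority of interferon response genes was called lower in neo-MG. This set is induced by type I interferons through the interferon-stimulated response element and holds antiviral enzymes and chemokines. Of 33 measured, 11 were called lower, none higher and 22 not called, and the median was -0.84. Of the 33 differences 31 were below 0 and 2 above. Array medians of the list were 10.72 to 10.78 in neo-MG, 11.17 to 11.38 in bm-Mac and 10.66 to 10.71 in iPS-MG. They were lower in ad-MG (9.25 to 9.53), p-Mac (9.14 to 9.25) and DC (8.72 to 8.88). Cxcl10, a chemokine that attracts T cells, read 9.43, 9.27 and 9.57 in neo-MG and 11.48, 11.21 and 11.04 in bm-Mac, a difference of -1.82 ± 0.12 (3.52-fold, limma adjusted p = 9.73e-13). Irf7, which amplifies interferon production, read 10.74, 10.85 and 10.83 in neo-MG and 12.56, 12.52 and 12.33 in bm-Mac and differed by -1.66 ± 0.09. Oasl1 differed by -1.72 ± 0.08, Oas3 by -1.68 ± 0.07, Gbp2 by -1.41 ± 0.09, Stat2 by -1.15 ± 0.07 and Oas1a by -1.09 ± 0.09. Not all members were lower: Isg15 (0.25) and Bst2 (0.26) were the highest of the list and were not called. The counts are close to the fold minimum, since 6 of the 11 were called when limma's treat tested against a difference of 1. Cxcl10 differed in the opposite direction between ad-MG and p-Mac, at 1.33.

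The promoter of Cxcl10 (chr5:92348890-92349139, minus strand) is shown because this gene had the largest interferon response difference with a promoter entry; capitals mark GAAANNGAA, the core of the response element, sought on both strands.
Cxcl10: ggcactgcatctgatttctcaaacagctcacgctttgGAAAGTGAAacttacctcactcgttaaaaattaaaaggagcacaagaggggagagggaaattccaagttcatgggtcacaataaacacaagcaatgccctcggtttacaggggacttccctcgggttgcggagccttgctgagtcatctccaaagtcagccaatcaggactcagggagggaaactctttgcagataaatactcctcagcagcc
Over all promoters 2342 held it (7.13 percent). Of the 11 called interferon genes 7 had an entry, 5 with the motif, and of the 22 that were not called 17 had an entry, 8 with the motif. It was thus found in members that were called and in members that were not, Ifit1 and Bst2 among the latter.

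Genes of sterol and fatty acid synthesis were higher in neo-MG. Cells make cholesterol from acetyl-CoA by way of mevalonate and lanosterol, and the SREBP factors switch on these enzymes as a set when sterol is short. Of 23 genes measured, 15 were called higher and 1 lower, with a median of 1.06. Scd1, a desaturase of fatty acids, read 10.05, 10.29 and 10.23 in neo-MG and 8.47, 8.48 and 8.46 in bm-Mac, a difference of 1.72 ± 0.09 (3.29-fold, limma adjusted p = 5.32e-14). Lss, which closes the lanosterol rings, read 10.87, 10.90 and 10.99 in neo-MG and 9.35, 9.35 and 9.18 in bm-Mac and differed by 1.63 ± 0.09. Cyp51, the lanosterol demethylase, read 11.30, 11.21 and 11.38 in neo-MG and 9.60, 9.89 and 9.88 in bm-Mac and differed by 1.51 ± 0.09. The steps were spread along the pathway, from Hmgcs1 (1.02) at its entry through Idi1 (1.45) and Fdps (1.25) to Sqle (1.00), Msmo1 (1.21), Sc5d (1.23) and Dhcr7 (1.02). Fasn, the fatty acid synthase, differed by 1.40 ± 0.07, Scd2 by 1.57 ± 0.07 and Insig1, a feedback inhibitor of SREBP processing, by 1.19 ± 0.08. The SREBP genes themselves were not called, Srebf1 at 0.29 ± 0.07 and Srebf2 at 0.14 ± 0.06. The called exception on the other side was Nr1h3, the oxysterol sensor LXR alpha, at -1.17 ± 0.08, while its efflux targets Abca1 (0.29) and Abcg1 (-0.40) were not called. Several of the 15 sat near the fold minimum: treat against a difference of 1 called 8, and Sqle was not called without neo-MG replicate 2 or bm-Mac replicate 1 or 3, Hmgcs1 without neo-MG replicate 2 or bm-Mac replicate 1, and Dhcr7 without bm-Mac replicate 3.

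The promoter of Hmgcs1 (chr13:119690101-119690350, plus strand) is shown as the list's single called member with the sterol regulatory element TCACCCCAC, in capitals, among 11 with an entry.
Hmgcs1: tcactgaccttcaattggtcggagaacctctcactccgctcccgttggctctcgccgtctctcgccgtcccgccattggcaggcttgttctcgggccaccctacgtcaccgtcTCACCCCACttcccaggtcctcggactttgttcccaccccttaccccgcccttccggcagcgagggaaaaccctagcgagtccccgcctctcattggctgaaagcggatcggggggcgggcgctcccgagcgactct
This motif stood in 163 of all promoters (0.496 percent) and in 0 of the 6 members with an entry that were not called.

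Chemokines and cytokines split between the groups. Among 24 chemokine genes, 2 were called higher and 5 lower. Ccl4, a chemokine of the CC family, read 12.05, 12.01 and 12.02 in neo-MG and 9.72, 9.72 and 9.43 in bm-Mac, a difference of 2.40 ± 0.14 (5.29-fold, limma adjusted p = 8.07e-14). Ccl12, a ligand of Ccr2, differed by 2.12 ± 0.13, so this ligand was higher where the receptor was lower. Ccl5 read 10.94, 10.88 and 10.75 in neo-MG and 12.99, 12.88 and 12.82 in bm-Mac, a difference of -2.04 ± 0.08 toward bm-Mac. Of 30 cytokine and growth factor genes, 3 were called higher and 5 lower. The interleukin 1 genes moved in opposite directions. Il1a read 11.53, 11.33 and 11.28 in neo-MG and 9.72, 9.64 and 9.65 in bm-Mac and differed by 1.71 ± 0.10, whereas Il1b read 7.78, 7.84 and 7.76 in neo-MG and 10.52, 10.37 and 10.27 in bm-Mac and differed by -2.59 ± 0.25. Their natural antagonist Il1rn differed by -1.95 ± 0.07, toward bm-Mac as Il1b did. Pdgfb was higher in neo-MG at 1.27 ± 0.08, and Vegfa, the vascular growth factor gene, was lower at -2.59 ± 0.07. Osm, at 1.00 ± 0.11, lost its call under a second quantile normalization, under array weights and without neo-MG replicate 2 or bm-Mac replicate 2 or 3. Of 20 receptors for chemoattractants and growth factors, 4 were called lower and none higher: Ccr2, Cxcr2, Ccr3 (-2.89) and Ccr1 (-1.98).

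Surface receptors, adhesion molecules and channels were mostly lower where they were called. Of 28 integrin and adhesion genes 9 were lower, led by Vcam1, a ligand of the integrin that holds Itga4, at 8.39, 8.39 and 8.44 in neo-MG and 12.22, 12.32 and 12.33 in bm-Mac and a difference of -3.88 ± 0.06; Itga2 differed by -2.23 ± 0.09, and Jam2, a junctional adhesion gene, was the 1 member higher, at 1.52 ± 0.08. Among 17 C-type lectin genes 6 were lower, with Clec4e, the Mincle receptor for mycobacterial glycolipid, at -4.04 ± 0.11. Of 15 purinergic genes 3 were higher, the microglial receptors P2ry12, P2ry13 and Gpr34, and 2 lower, the ADP receptor gene P2ry1 (-2.22) and the ATP-gated channel gene P2rx1 (-2.03). Of 14 potassium channel genes, Kcnn4, a calcium-activated channel, read 7.83, 7.76 and 7.63 in neo-MG and 12.27, 12.19 and 12.07 in bm-Mac, a difference of -4.44 ± 0.07, and Kcnma1, the large-conductance calcium-activated channel gene, differed by 2.00 ± 0.10 the other way; 3 in all were lower. Tlr5, the flagellin receptor gene, was the lowest of 21 Toll-like receptor pathway genes at -2.13 ± 0.08; 3 were called lower, and 1 lower with 1 higher after median centring.

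Complement and clearance genes differed by component. C1qa, a chain of C1q, read 12.77, 12.81 and 12.76 in neo-MG and 11.50, 11.43 and 11.45 in bm-Mac, a difference of 1.32 ± 0.13, while C1qb (0.29) and C1qc (0.31), the other chains of the same protein, were not called. C2, the classical pathway protease, read 10.02, 9.98 and 10.14 in neo-MG and 7.40, 7.24 and 7.34 in bm-Mac, and the alternative pathway genes Cfb (-1.75) and Cfp (-1.56) were lower in neo-MG, as were Cd55 (-1.94), Itgax and Vsig4 (-1.36). In all, 2 of 17 complement genes were higher and 5 lower. Of the TAM system, by which macrophages take up dying cells, the bridging ligands Pros1 (1.90) and Gas6 (1.28) were higher, the receptor gene Mertk was not called (0.15), and Axl read 11.11, 11.25 and 11.18 in neo-MG and 12.19, 12.20 and 12.17 in bm-Mac, a difference of -1.004 ± 0.055 whose call was lost under median centring, under a second quantile normalization and without neo-MG replicate 1 or bm-Mac replicate 2. Fatty acid binding and scavenger genes included Fabp3 (2.22), Colec12 (2.13) and Fabp7 (1.87), all higher, and Cd163 (-1.26), lower, among 21. Of 34 lysosomal genes Mcoln3 was called (2.94 percent, against 5.23 percent of all genes), and 1 more after median centring or without bm-Mac replicate 1. Among 43 transcription factor genes 2 were higher, Bhlhe41 and Sall1, and 3 lower, Egr2 (-2.21), Ahr (-1.76) and Nr1h3. None of 32 Hox genes and 1 of 30 cell cycle genes (3.33 percent), Ccnd2 (-1.40), was called, both near the share of all genes.

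Called members of the protease, alternative activation, osteoclast and immediate early lists were all lower in neo-MG, whereas matrix genes were called in both directions. Of 27 protease and inhibitor genes 9 were lower, from Mmp9 and the neutrophil collagenase gene Mmp8 (-2.97) to the metalloproteinase inhibitor genes Timp3 (-2.05) and Timp1 (-1.01). Of 28 matrix genes 4 were lower, led by thrombospondin, Thbs1 (-2.65), and 2 higher, Sparc and the collagen cross-linking enzyme gene Lox (2.15), with a median of 0.04. In the TGF-beta and BMP list the BMP receptor gene Bmpr1a was the 1 of 26 called higher, at 11.30, 11.34 and 11.24 in neo-MG and 8.92, 8.95 and 9.19 in bm-Mac and a difference of 2.28 ± 0.07. In the same list 2 were called lower, Ltbp1 (-1.545) and Bmp2. Of 18 genes of alternative activation 7 were lower, among them Mgl2 (-2.88) and Alox15 (-2.50), and none higher. Of 18 osteoclast and fusion genes 5 were lower, including Dcstamp (-3.51), which cell fusion requires, and Acp5 (-1.57). Of 20 immediate early genes 4 were lower, including Nr4a2 (-2.21) and Nr4a1 (-1.60), and Jun was not called at 0.69 ± 0.08. The glucose transporter genes Slc2a3 (-1.97) and Slc2a1 (-1.10) were among 4 of 23 glycolysis and hypoxia genes called lower, a count that rose to 7 without bm-Mac replicate 3. Receptors of the Fc and TREM type had 4 of 15 lower, Pilrb1 (-2.82), Trem3 (-2.65), Pilra (-2.64) and Trem1 (-1.31), while no Fc gamma receptor gene was among the called ones. The iron importer gene Tfrc differed by -1.41 ± 0.08 and was 1 of 2 called lower among 24 iron and redox genes.

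Genes of neighbouring brain and macrophage types were tested the same way. None of 11 neuronal and 10 oligodendrocyte genes was called, against 5.23 percent of all genes, and at that share lists this short would hold few calls. Of 11 astrocyte genes 2 were higher in neo-MG, Gfap at 9.07, 8.86 and 9.13 in neo-MG and 7.49, 7.49 and 7.38 in bm-Mac (1.57 ± 0.10) and Aqp4 (1.02), the latter lost without neo-MG replicate 3 or bm-Mac replicate 2. Of the 11, 7 differences were above 0, and array medians of the list were 8.05 to 8.10 in neo-MG and 7.86 to 8.0 in bm-Mac. Its summed linear value lay the other way, at 10180 to 10322 per neo-MG array and 10606 to 10850 per bm-Mac array. Of 9 neural progenitor genes Fabp7 and Sox2 (1.11) were higher, Sox2 not without bm-Mac replicate 2. Of 16 fibroblast genes Postn was called, at 2.20 ± 0.07; the list summed to 5723 to 5829 in neo-MG, 4712 to 4752 in bm-Mac and 32406 to 34764 in ad-MG. Border-associated macrophage genes had 5 of 15 called lower, and their marker Mrc1 overlapped between the groups at 0.05 ± 0.10. Of 16 dendritic cell genes 6 were lower, including Clec10a (-3.26) and Clec9a (-2.81). Of 17 peritoneal macrophage genes 8 were lower, led by F5 (-3.81) and Selp (-3.48), and 1 higher, Fabp7.

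A minority of the ribosomal protein and respiratory chain genes was called higher in neo-MG, and most of each family read lower in all bm-Mac and p-Mac arrays than in the other 18. These families were put together after values were seen. Of 73 ribosomal protein genes 17 were called higher, none lower and 56 not called, with a median of 0.47. These counts rest on 1 probeset a gene, and probesets of a gene did not always give the same call. The gene's call was given by 1 of 4 probesets for Rpl27 (0.37 to 2.10), 6 of 13 for Rpl23a and 4 of 9 for Rpl27a. For Rps12 it was given by 12 of 12. In the respiratory chain it was given by 1 of 2 for Cox6a1 (0.66 to 1.73). Rps21, of the small subunit, read 12.09, 12.15 and 12.04 in neo-MG and 9.86, 9.84 and 9.63 in bm-Mac, a difference of 2.32 ± 0.08, and its p-Mac mean was 9.38 against 12.41 in DC and 12.69 in NSC. Of 75 respiratory chain genes 19 were called higher, none lower and 56 not called, with a median of 0.49, and a shorter list of 20 oxidative phosphorylation genes gave 6 higher; Ndufa1, of complex I, read 11.76, 11.66 and 11.69 in neo-MG and 9.21, 9.11 and 8.76 in bm-Mac, a difference of 2.68 ± 0.11. All 6 bm-Mac and p-Mac arrays lay below all 18 others for 57 of the 73 ribosomal genes (78.1 percent), 48 of the 75 respiratory chain genes (64 percent), 114 of the 396 genes called higher (28.8 percent) and 638 of all genes (3.39 percent). Array medians of the ribosomal genes were 12.71 to 12.76 in neo-MG, 11.98 to 12.07 in bm-Mac and 11.66 to 11.82 in p-Mac. Of the 23 sterol genes 2 showed that pattern, Scd1 and Scd2 (8.7 percent, against 3.39 percent of all genes). The part of RNA quality or handling in it was not tested, and 282 of the 396 higher genes were outside it. On the other side all 6 arrays lay above the rest for 158 of the 588 lower genes (26.9 percent) and 696 of all genes (3.7 percent). This held for 9 of the 15 granulocyte genes (60 percent) and 6 of the 13 class II genes (46.2 percent). It held for 0 of the 33 interferon genes, which is near the share of all genes.

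Of 306 microRNA genes 8 were called (2.61 percent, against 5.23 percent of all genes), 1 higher and 7 lower in neo-MG, so calls were no more frequent in this family, also put together after values were seen, than over all genes. They measure RNA of the gene in total RNA, not the mature form. The genes lower in neo-MG included genes whose mature forms share a seed, so mature sequences from RefSeq are shown with the seed, bases 2 to 8, in capitals.
mmu-miR-221-3p: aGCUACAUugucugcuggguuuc
mmu-miR-222-3p: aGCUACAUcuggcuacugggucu
mmu-miR-15a-5p: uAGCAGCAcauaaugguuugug
mmu-miR-15b-5p: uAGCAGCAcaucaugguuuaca
mmu-miR-16-5p: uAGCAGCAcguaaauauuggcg
Those of miR-221 and miR-222 share a seed, and those of miR-15a, miR-15b and miR-16 share another. Mir222 read 6.67, 6.72 and 6.81 in neo-MG and 8.88, 8.68 and 9.01 in bm-Mac, a difference of -2.13 ± 0.10, and its neighbour Mir221 differed by -1.85 ± 0.13. Mir15a read 9.13, 9.18 and 9.21 in neo-MG and 10.50, 10.87 and 10.98 in bm-Mac, a difference of -1.61 ± 0.09, with Mir16-1 at -1.14 ± 0.12 and Mir15b at -1.14 ± 0.14. The bm-Mac arrays were above the neo-MG arrays for all 5, as for every gene called lower. Mir181b-1 (-1.63) and Mirlet7d (-1.01) were lower as well; the call of Mirlet7d was lost under median centring, a second quantile normalization and without neo-MG replicate 1 or 2 or bm-Mac replicate 2 or 3, and that of Mir16-1 without bm-Mac replicate 3. Mir703 alone was higher, at 2.28 ± 0.12, and it was low in p-Mac too (10.29).

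Adult microglia against peritoneal macrophages give a second contrast of microglia with macrophages that uses none of the 6 arrays. The ad-MG mice had the same Cx3cr1gfp/+ genotype as neo-MG but were adult, and the p-Mac mice were adult C57BL/6NCr. That contrast called 1927 genes (10.2 percent), 1411 higher in ad-MG (7.5 percent) and 516 lower (2.74 percent). Genes called higher in both contrasts numbered 236, which is 59.6 percent of the 396 and 16.7 percent of the 1411, and genes called lower in both numbered 174, which is 29.6 percent of the 588 and 33.7 percent of the 516. The pattern of bm-Mac and p-Mac arrays all lying below the other 18 held for 97 of these 236 genes, and outside it 139 of 282 higher genes were shared (49.3 percent); the reverse pattern held for 89 of the 174, and outside it 85 of 430 lower genes were shared (19.8 percent). Of the fibroblast list, 14 of 16 genes were called higher in ad-MG than in p-Mac and 1 in neo-MG than in bm-Mac. The part of either in the shared calls was not tested beyond these counts. Of the 9 called microglia-enriched genes 7 were called higher in both. These were Gpr34 (2.85 here, 3.1 there), P2ry12 (2.48 and 1.96), Olfml3 (2.55 and 1.30), Bhlhe41 (2.07 and 1.27), Sparc (1.57 and 4.53), Fcrls (2.76 and 4.52) and P2ry13 (2.38 and 2.36), whereas Sall1 (0.70) and Plxdc2 (-0.75) were not called between ad-MG and p-Mac. Of the class II chains, H2-Aa (-6.35 and -6.03) and H2-Eb1 (-3.27 and -3.35) were called lower in both. Of the 23 sterol genes, with a median of -0.21 there, 2 were called higher in ad-MG, Scd1 (1.89) and Scd2 (1.39), and 1 lower, Nr1h3 (-1.13), while Lss (-0.21) and Cyp51 (-0.48) were not called. Of the granulocyte list 14 members were lower here, and there 3 were lower and 1 higher (Lcn2, 2.68), and of the Y-linked genes none was called there, Eif2s3y being at -0.10.

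**Figure D5:**
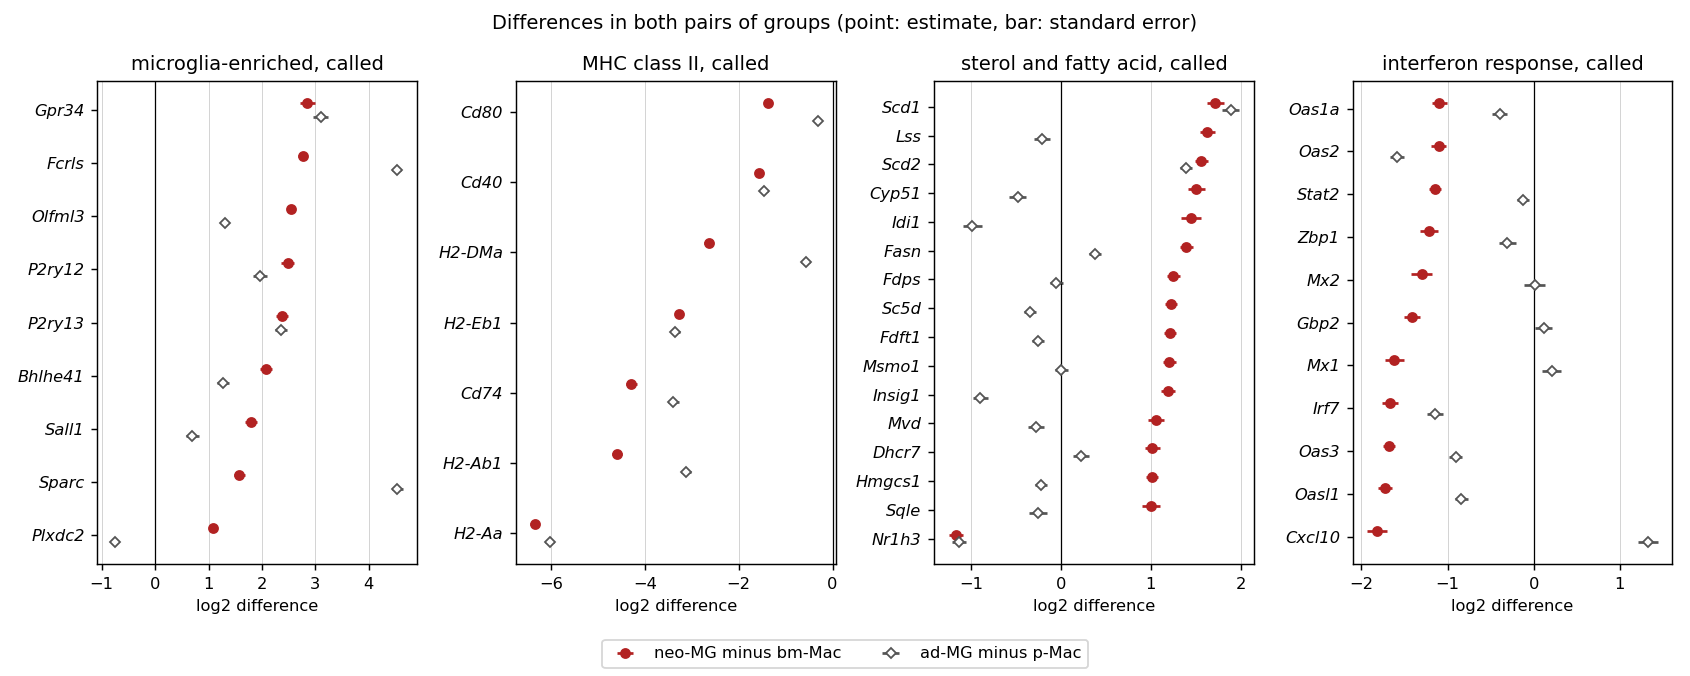
Log2 differences of the genes called between neo-MG and bm-Mac in 4 lists (red circles), beside the same genes' differences between ad-MG and p-Mac (open diamonds); bars are standard errors of the fit and the vertical line is 0. Class II chains lie to the left of 0 in both, while most sterol genes lie to the right of 0 only for neo-MG against bm-Mac.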

How the data were processed

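Total RNA of 24 samples (8 groups of 3) was measured on GeneChip Mouse Gene 1.0 ST arrays, 1 array a sample. Per the submitters' processing notes the authors used RMA and Partek; the deposited values lie on a log2 scale, though the sources used here state neither the base nor the background step, and the base was read from the range of the values. Of 35556 probesets, 21218 name 1 gene, 1881 several and 12457 none; those naming 1 gene gave 18820 genes, 1386 of them with several probesets, and the brightest on average over the 24 arrays was used for each.

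Groups were compared with limma 3.58.1 in R 4.3.3 in 1 fit to all 24 arrays (lmFit, contrasts, eBayes), with Benjamini-Hochberg adjustment over all genes and calls where the adjusted p was under 0.05 and the means lay 1 or more log2 units apart. Precision is limited by 3 arrays a group. Protein-coding genes named in the text are the 15 highest and 15 lowest differences without overlap of arrays; of each list, the 2 highest and 2 lowest members and those whose role is described. The members and lists were chosen with earlier results of these data known. Gene types, promoters and microRNAs are RefSeq's. Alternatives were other normalizations, probeset rules, a filter on dim genes (log2 of 7 in 3 arrays), 6 arrays only, array weights, limma-trend, treat, no fold minimum, a replicate block and leaving out each array.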

Additional observations from a re-analysis of the deposited data

Results flagged for a closer look

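Genes whose difference between neo-MG and bm-Mac ran against that between ad-MG and p-Mac were picked out. In all, 58 genes were called in opposite directions in the 2 contrasts, so that a gap of at least 2 log2 units between the contrasts follows from the choice of these genes and its test adds nothing to the calls; 52 were lower in neo-MG and higher in ad-MG, and 6 the reverse. The 11 with the largest gaps, over 5 log2 units, were all lower in neo-MG than in bm-Mac and higher in ad-MG than in p-Mac. Gria3, a glutamate receptor subunit gene, differed by -2.47 here and 4.56 there, a gap of -7.03. Timp3, a metalloproteinase inhibitor gene, differed by -2.05 here and 4.44 there, a gap of -6.50. Vcam1 differed by -3.88 here and 2.46 there, a gap of -6.34. Timp1 differed by -1.01 here and 4.73 there, a gap of -5.74; its call here was lost under median centring, a second quantile normalization and without neo-MG replicate 1 or bm-Mac replicate 1 or 2. The protocadherin gene Pcdh7 differed by -3.81 here and 1.89 there, a gap of -5.69. Lipocalin 2, Lcn2, differed by -2.93 here and 2.68 there, a gap of -5.61. Eya1 differed by -3.35 here and 2.25 there, a gap of -5.61. Penk, which encodes proenkephalin, differed by -1.45 here and 3.91 there, a gap of -5.36. Emp2 differed by -2.64 here and 2.60 there, a gap of -5.24. Uck2 differed by -2.62 here and 2.56 there, a gap of -5.19. Fhl1 differed by -1.51 here and 3.50 there, a gap of -5.02. Fibroblast genes were high in ad-MG (a summed linear value of 32406 to 34764 per array, against 4540 to 5156 in p-Mac), and their part in these gaps was not tested. Among the 6 genes that ran the other way, Fabp7 differed by 1.87 here and -2.47 there.

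Probesets that do not name a single gene were outside the comparison. Of 14338 such probesets, 820 were called between neo-MG and bm-Mac (5.72 percent), 250 higher and 570 lower in neo-MG. They are given as counts only.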

How the results depend on the processing

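The fold minimum changed the counts most. Without it 7772 genes were called between neo-MG and bm-Mac (3571 higher, 4201 lower) and 14712 between ad-MG and p-Mac (5434 higher, 9278 lower); treat against a log2 difference of 1 called 643 (234 higher, 409 lower) here and 1334 (995 higher, 339 lower) there. Under the other alternatives the count of 984 lay between 954 (second quantile normalization) and 1016 (probeset by variance), and no named gene reversed. Median centring moved the share of higher genes from 40.2 to 48.2 percent (481 higher, 517 lower) and the median of all genes from -0.03 to 0.05. Leaving out each array gave 971 to 1004 calls, 392 to 415 higher and 573 to 607 lower, and 1886 to 1975 for ad-MG against p-Mac. With the replicate number as a block the calls were 984 (396 higher, 588 lower) and 1927. Deviations of same-numbered arrays from their group means had r of -0.04, 0.01 and -0.05 for neo-MG and bm-Mac. For ad-MG and p-Mac these were 0.25, -0.03 and -0.06. With 3 arrays a group such values cannot settle whether the numbers pair the arrays. Depth here is signal over background, and without detection calls a low value cannot be told from background.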
